A study of Oryza sativa with 6 samples.

Results

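The probes described here lie on the precursors of 14 microRNA families known for roles in plant development, most of them conserved among land plants: miR156, miR159, miR160, miR162, miR164, miR166, miR167, miR168, miR169, miR172, miR319, miR393, miR394 and miR396. They were chosen by name alone, as all probes whose name begins with osa-miR and one of those family numbers, whatever the letter that follows. The rule found 255 probes on 85 precursors, out of 42477 probes on a rice array that holds 510 microRNA probes in all. Each precursor carries 3 probes, named Mature, 5'seq and 3'seq for the part of the precursor they lie on. The probes were measured in roots of 6-day-old seedlings of the rice (Oryza sativa) cultivar TN-67, with 3 arrays for roots given 5 µM copper and 3 for roots given 25 µM cadmium. On every array the RNA of metal-treated roots was labelled with the dye Cy5 and competed with Cy3-labelled RNA of roots in water, so each value is a log2 ratio of metal over water. The dyes were never swapped, and a dye effect on a probe cannot be told apart from a metal effect against water, although it cancels in the difference between the metals. The replicates are labelled as biological. The submitters list 3 control replicates in all, so the copper and cadmium arrays may share water-control RNA, but neither the division of control RNA among arrays nor the length of exposure is stated in the labels used here.

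A plant microRNA gene is transcribed as a long primary transcript that folds into a hairpin, from which the nuclease DCL1 cuts a short duplex. One strand of the duplex is loaded into AGO1 and directs the cleavage of messenger RNAs with a matching site. Most of the families chosen here act on transcription factors that set the identity and growth of organs, or on auxin signalling, and miR162 and miR168 act on the microRNA machinery itself. Precursors of one family often carry the same or nearly the same mature sequence, so their Mature probes may read the same RNA and are not independent of each other, while the flanks differ more between precursors. The labelling copied total RNA by linear amplification, and which molecules of a precursor (primary transcript, hairpin or mature strand) a probe read was not tested. The files used here give neither probe sequences nor coordinates beyond the chromosome in the probe name, so no sequence is shown.

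The main property of the set was low signal. Of the 255 probes, 109 (42.7%) from 67 precursors were kept, which required a signal well above background in the metal or the water channel on every array of copper or of cadmium, against 33701 of 42477 (79.3%) over the whole array. The Mature probes were kept least often. They numbered 13 of 85 (15.3%), while 50 of 85 5'seq probes (58.8%) and 46 of 85 3'seq probes (54.1%) were kept. On the other microRNA precursors of the array, 32 of 85 Mature probes (37.6%), 35 of 85 5'seq probes (41.2%) and 38 of 85 3'seq probes (44.7%) were kept. Of the 146 member probes not kept, 71 were not well above background on any array in either channel and 75 were so on at least 1 array, and 18 precursors had no kept probe. The families differed in the same respect: 5 of 6 miR168 probes and 26 of 39 miR166 probes were kept, against 15 of 48 for miR169, 5 of 30 for miR167 and 1 of 12 for miR172. The kept Mature probes belonged to miR166 (7), miR164 (3), miR168 (2) and miR156 (1), and none of the 16 Mature probes of miR169 was kept. Of the 109 kept probes, 82 qualified through the water channel and 27 only through the metal channel. A probe of the second kind passed only through the metal channel, which favours ratios above 0, so counts over kept probes are descriptions and not support for a direction.

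**Figure D1:**
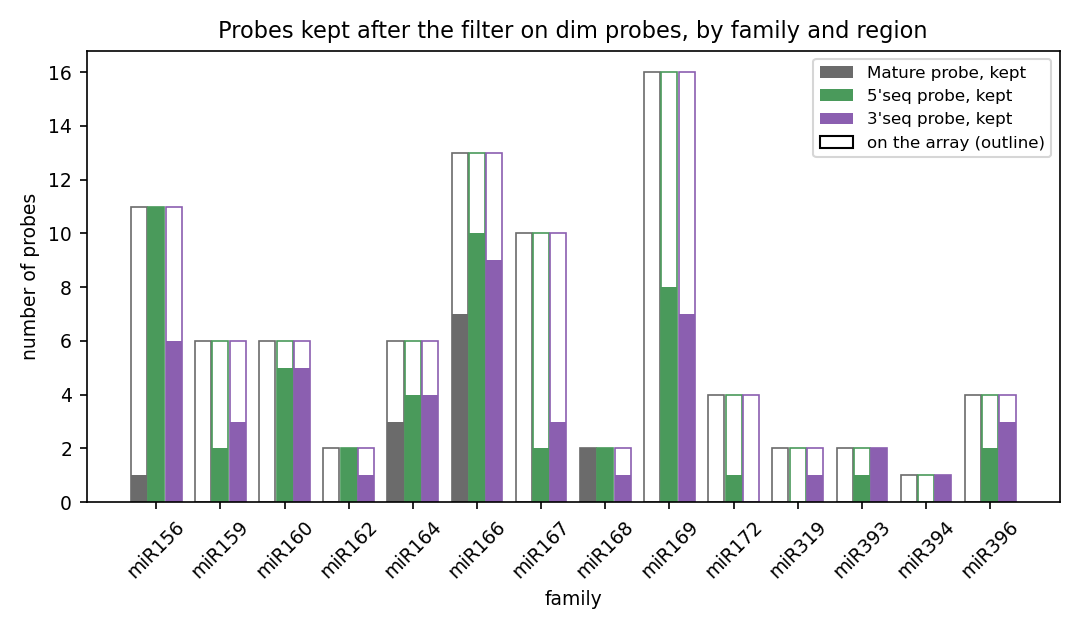
Number of probes (y axis) kept after the filter on dim probes for each family (x axis) and probe region, as filled bars inside outlines that give the number on the array. Only miR156, miR164, miR166 and miR168 have a filled grey bar for Mature probes, and all 11 5'seq probes of miR156 were kept.

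Arrays of replicate 1 stood apart from the others. Copper replicate 1 and cadmium replicate 1 each came from a slide of their own, while replicates 2 and 3 of both metals shared another slide. Over all kept probes the log2 ratios of copper replicates 2 and 3 correlated at 0.96 and those of cadmium replicates 2 and 3 at 0.95, against 0.81 to 0.84 for pairs of one metal that include replicate 1. Spots marked as outliers made up 2.85% on copper replicate 1, 1.45% on cadmium replicate 1 and at most 0.16% elsewhere. The share of spots well above background was 77.0 to 82.3% in Cy5 and 75.6 to 81.2% in Cy3, and no spot was saturated. The median standard error of a log2 change over all kept probes was 0.0937, which limits what can be seen in probes that mostly moved by less than 0.5.

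With copper, 27 of the 109 kept member probes rose and 3 fell (limma on all 33701 kept probes, adjusted p under 0.05 by Benjamini-Hochberg). Over the whole array 42.6% of probes were called with copper, 25.1% higher and 17.5% lower, so the 24.8% of members that rose was close to the background share, while the 2.75% that fell was below it. With cadmium, 34 member probes (31.2%) rose and 1 (0.917%) fell, against 20.4% and 13.7% over the array, where 34.1% were called. The median member log2 change was 0.136 with copper and 0.199 with cadmium, against 0.009 and 0.001 over all kept probes. The shifts were small in this scaling: 4 members had a log2 change of at least 0.5 in size with copper (3.67%, against 21.5% of all probes) and 11 with cadmium (10.1%, against 17.1%). None reached 1 with either metal, which 7.65% and 5.78% of all probes did. The background correction used here shrinks the ratios of dim probes, so these sizes depend on it. By the scanner's own processed signals some members passed 1, such as osa-miR169g 3'seq with copper (1.21) and osa-miR169i 3'seq with cadmium (1.89). Shares of that size were not counted for those signals. The member medians of single arrays were 0.14, 0.13 and 0.13 for copper and 0.23, 0.17 and 0.12 for cadmium, all above 0.

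More members kept 1 sign over their arrays than passed the test. With copper, 59 member probes (54.1%) had a ratio above 0 on all 3 arrays, against 35.4% of all probes, and 8 (7.34%) a ratio below 0 on all 3, against 31.8%. With cadmium these were 67 (61.5%, against 32.6%) and 7 (6.42%, against 29.6%). Among the 67 members whose water channel was bright on all 6 arrays, 23 rose and 3 fell with copper. With cadmium 24 rose and 1 fell, and the medians were 0.189 with copper and 0.223 with cadmium. Of the 30115 such probes over the whole array, 7203 rose and 5731 fell with copper, and 5865 rose and 4455 fell with cadmium. Their medians were -0.01 and -0.015. Rises were spread over 23 precursors and 8 families with copper and over 30 precursors and 6 families with cadmium. The number of calls dropped when some single arrays were left out, among members and over the whole array alike. With copper, 9 of 109 members rose without copper replicate 2 and 11 without copper replicate 3. In these fits the share of all kept probes that rose with copper went from 25.1% to 18.4% and 16.5%. With cadmium, 14 rose without cadmium replicate 2, 21 without cadmium replicate 1, 22 without copper replicate 2 and 21 without copper replicate 3. The copper arrays enter through the shared estimate of the spread. Of all kept probes, 20.4% rose with cadmium when every array was used. In those fits, taken in the same order, 13%, 17.8%, 18.1% and 17.6% did. With cadmium replicate 2 left out, the 14 of 109 members were thus no excess over the 13% of all kept probes. Without copper replicate 1, the array on its own slide, 21 of 109 members rose with copper, and 23.1% of all kept probes did.

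**Figure D2:**
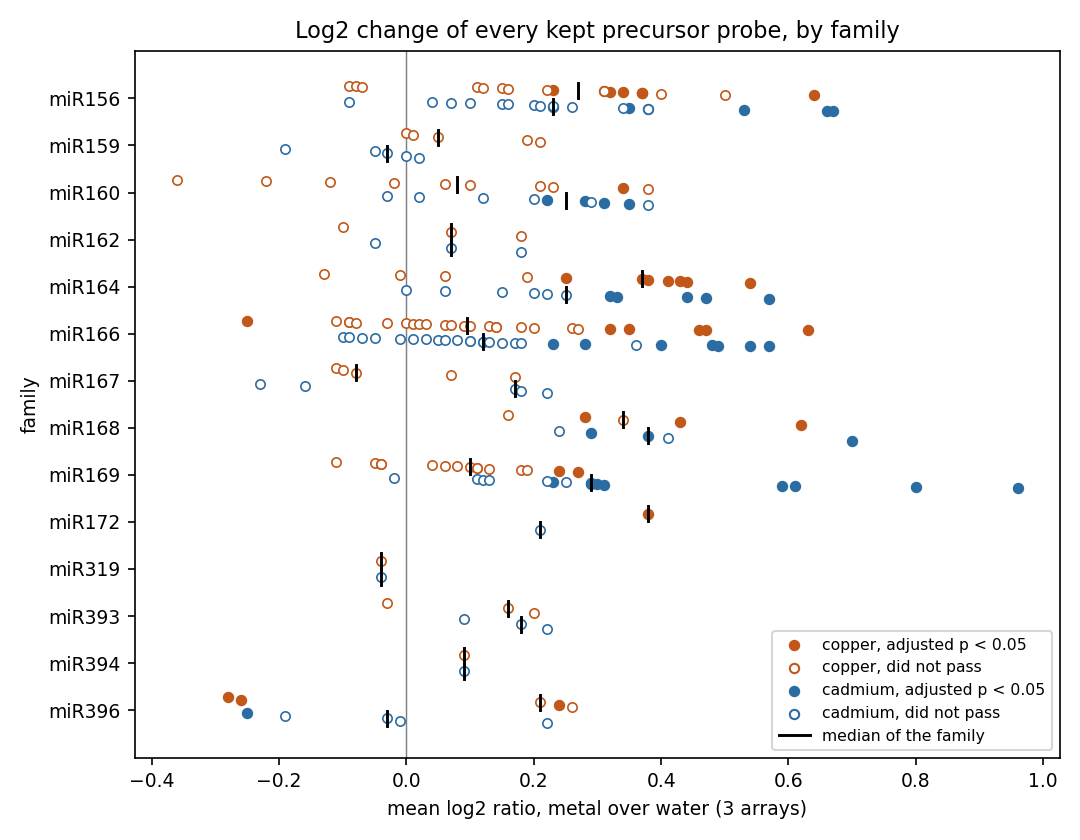
Mean log2 ratio of metal over water (x axis, 3 arrays per metal) of each of the 109 kept probes, by family (y axis), with copper in orange and cadmium in blue. Filled points passed the test, open points did not, and black bars are family medians. The cadmium points of miR169 reach 0.96, the highest value, and the filled points left of 0 belong to miR166 and miR396.

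The miR156 family, which restrains SPL transcription factors and so holds plants in the juvenile phase, had kept probes on all of its 11 precursors. Of its 18 kept probes, 7 rose with copper and 6 with cadmium, and none fell. The 7 rises with copper all lay in 5'seq probes, of which 11 were kept, and none of the 6 kept 3'seq probes or the single Mature probe was called, although up to 4 of the 3'seq probes were in other settings. With cadmium 4 of the 5'seq and 2 of the 3'seq probes rose. The 5'seq probe of osa-miR156e, on chromosome 4, had log2 ratios of 0.56, 0.82 and 0.54 on the copper arrays and 0.84, 0.57 and 0.56 on the cadmium arrays. All 6 values lay above 0.5, and those of the metals overlapped. Its change was 0.64 ± 0.16 (SD, n = 3) with copper, 1.56-fold (limma, adjusted p = 0.00118), and 0.66 ± 0.16 with cadmium, 1.58-fold (adjusted p = 0.00149). Both calls held under all 16 alternatives.

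The largest miR156 rise with cadmium was that of the osa-miR156d 3'seq probe, on chromosome 2. Its ratios were 1.19, 0.62 and 0.19 with cadmium and 0.85, 0.19 and 0.15 with copper, so that replicate 1 was the highest for both metals. The mean with cadmium was 0.67 ± 0.50 (SD, n = 3; limma, adjusted p = 0.0353), and 0.40 ± 0.39 with copper did not pass (adjusted p = 0.145). Without cadmium replicate 1 the cadmium value was 0.40 (adjusted p = 0.15), and the call was also lost on leaving out cadmium replicate 2 (0.69, adjusted p = 0.109), copper replicate 2 (adjusted p = 0.0516) or copper replicate 3 (adjusted p = 0.05). The kept Mature probe of the family, that of osa-miR156k, read -0.09 on each copper array and -0.09, -0.11 and -0.05 with cadmium. Left-out arrays moved the family's counts as well: miR156 had 2 rises with copper without copper replicate 2 and 1 without copper replicate 3. With cadmium it had 2 when cadmium replicate 2 was left out, 3 for cadmium replicate 1, and 4 for cadmium replicate 3 and for each of copper replicates 2 and 3.

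The miR164 family acts on NAC transcription factors of the CUC type, which set organ boundaries and, in Arabidopsis, lateral root formation. It had the highest family median with copper among families with more than 1 kept probe, at 0.37, and 0.25 with cadmium. Of its 11 kept probes, 7 rose with copper and 5 with cadmium, and the copper rises fell on Mature (2 of 3), 5'seq (3 of 4) and 3'seq probes (2 of 4). On osa-miR164d, chromosome 2, the 3'seq probe read 0.42, 0.63 and 0.56 with copper and 0.85, 0.46 and 0.41 with cadmium. The 5'seq probe of the same precursor read 0.52, 0.37 and 0.40 with copper and 0.60, 0.54 and 0.27 with cadmium. Every array was above 0 at both ends of this precursor, and the metals overlapped. The 3'seq change was 0.54 ± 0.11 with copper, 1.45-fold (limma, adjusted p = 0.00417, n = 3), and 0.57 ± 0.24 with cadmium, 1.49-fold (adjusted p = 0.00419). Both probes of osa-miR164d were called with both metals under all 16 alternatives. In contrast, the probes of osa-miR164a, chromosome 7, read from -0.13 to 0.06 in their means and none was called. The miR164 copper count was 3 without copper replicate 2 and 4 without copper replicate 3, and the cadmium count was 2 without cadmium replicate 2.

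The miR166 family restrains HD-ZIP III transcription factors, which pattern the vascular cylinder of the root and the upper side of leaves. It had the most kept probes, 26 on 13 precursors, and its calls lay mostly in 1 probe region. Of the 10 kept 5'seq probes, 5 rose with copper and 6 with cadmium, whereas none of the 7 kept Mature probes was called with either metal, their means running from -0.08 to 0.14 with copper and from -0.09 to 0.12 with cadmium. Among the 9 kept 3'seq probes none rose and 1 fell with copper, and 1 rose with cadmium. The osa-miR166h 5'seq probe, chromosome 2, read 0.49, 0.81 and 0.59 with copper and 0.57, 0.64 and 0.43 with cadmium. All 6 ratios were high and the metals overlapped. Its change was 0.63 ± 0.16 with copper, 1.55-fold (limma, adjusted p = 0.00101, n = 3), and 0.54 ± 0.11 with cadmium, 1.46-fold (adjusted p = 0.00277).

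The osa-miR166m 5'seq probe, chromosome 8, read 0.56, 0.38 and 0.46 with copper and 0.76, 0.61 and 0.33 with cadmium. Its means were 0.46 ± 0.09 with copper (limma, adjusted p = 0.00608, n = 3) and 0.57 ± 0.22 with cadmium (adjusted p = 0.00349), and the groups overlapped. These 5'seq probes of osa-miR166h and osa-miR166m were called with both metals under all 16 alternatives. The family's lone fall was the 3'seq probe of osa-miR166g, chromosome 12, with ratios of -0.30, -0.30 and -0.16 on the copper arrays and 0.07, -0.12 and -0.25 on the cadmium arrays. It fell by 0.25 ± 0.08 with copper (limma, adjusted p = 0.0424, n = 3) and read -0.10 ± 0.16 with cadmium (adjusted p = 0.372). The fall was lost without any 1 copper array (adjusted p of 0.122, 0.176 and 0.0966 without copper replicates 1, 2 and 3) and without cadmium replicate 2 (adjusted p = 0.0719). The scanner's own processed signals gave -0.57 for it with copper, more than 1.5 times the value here. With copper miR166 had 2 rises without copper replicate 2 and 3 without copper replicate 3, and with cadmium 4 without cadmium replicate 2.

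**Figure D3:**
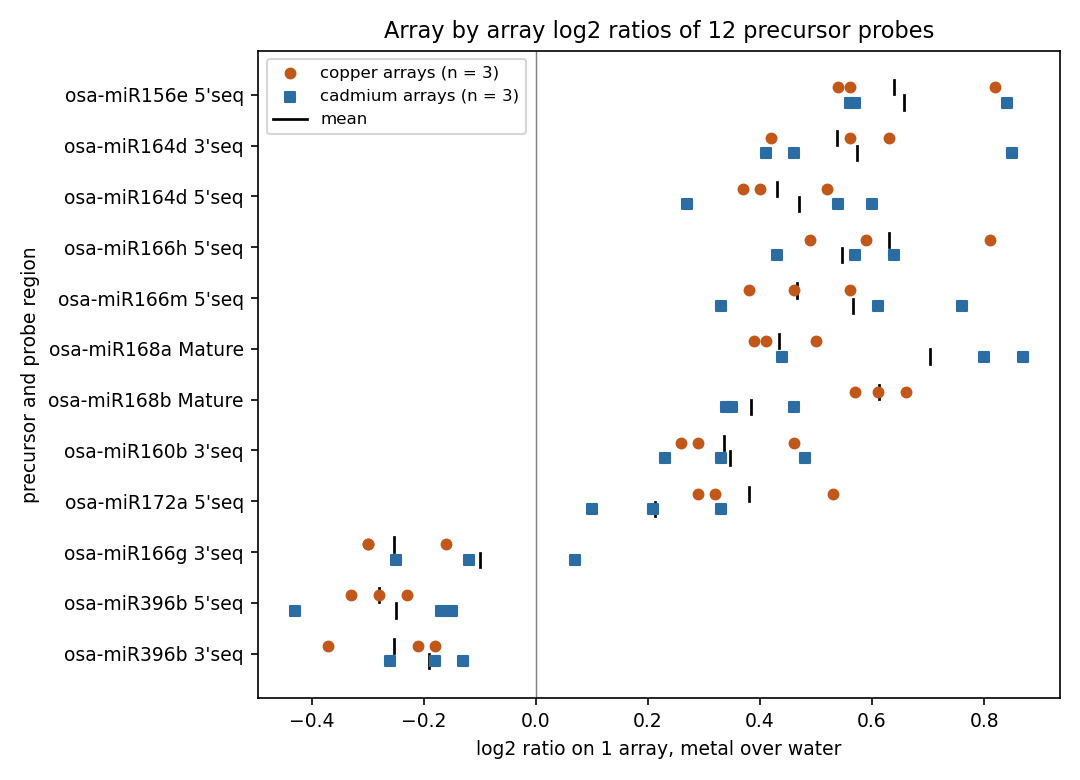
Log2 ratio of metal over water on each array (x axis) for 12 probes (y axis) named in the text outside miR169, with copper as orange circles, cadmium as blue squares and means as black bars. Ratios of osa-miR156e, osa-miR164d, osa-miR166h, osa-miR166m and both miR168 Mature probes lie above 0.2 on all 6 arrays, and those of osa-miR396b lie below 0 on all 6.

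The miR168 family cuts the messenger of AGO1, the protein that carries microRNAs, and was the only family with Mature probes kept on all of its precursors, osa-miR168a and osa-miR168b, both on chromosome 2. Of 5 kept probes, 3 rose with each metal, and both Mature probes were among them. The osa-miR168b Mature probe read 0.61, 0.66 and 0.57 with copper and 0.35, 0.46 and 0.34 with cadmium. The copper values lay above the cadmium values without overlap. Its change was 0.62 ± 0.05 with copper, 1.53-fold (limma, adjusted p = 0.000333, n = 3), and 0.38 ± 0.06 with cadmium, 1.3-fold (adjusted p = 0.00457), but the difference of -0.23 ± 0.10 (SE) between the metals did not pass over the whole array (adjusted p = 0.17). The osa-miR168a Mature probe read 0.50, 0.39 and 0.41 with copper and 0.87, 0.80 and 0.44 with cadmium, with overlap. It rose by 0.43 ± 0.06 with copper (limma, adjusted p = 0.00821, n = 3) and by 0.70 ± 0.23 with cadmium, 1.63-fold (adjusted p = 0.00128), and up to 1.39 with cadmium by the processed signals. The miR168 count was 2 of 5 with copper without any 1 copper array, and with cadmium 2 when cadmium replicate 1 or 2 or copper replicate 3 was left out.

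The other family tied to the microRNA machinery, miR162, which acts on DCL1, had 3 kept probes and none was called. Its largest was the osa-miR162b 5'seq probe, chromosome 4, with ratios of 0.08, 0.29 and 0.18 with copper and 0.36, 0.17 and 0.02 with cadmium. Its mean was 0.18 with each metal (limma, adjusted p = 0.127 and 0.144), and the replicates spread over most of that value. With processed signals centred on the median this probe passed, at 0.31 with copper and 0.28 with cadmium (limma, adjusted p = 0.0253 and 0.0409). Without that centring, processed signals called osa-miR162a 3'seq lower, at -0.39 with copper and -0.38 with cadmium (limma, adjusted p = 0.0361 and 0.0473).

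The miR169 family targets NF-YA subunits of a CCAAT-binding transcription factor and is known in several plants to respond to drought and salt. Among the 14 families, its 15 kept probes most often had cadmium above copper without overlap. With copper 2 rose and with cadmium 9 rose, and the family median was 0.10 with copper and 0.29 with cadmium. For 6 of the 15 all 3 cadmium ratios lay above all 3 copper ratios, and for none the reverse, where over the whole array 14.8% of probes separated that way and 16.4% the other. Of all 109 members, 10 (9.17%) had cadmium above copper without overlap and 3 (2.75%) had cadmium below. Outside miR169 the former were 3 miR160 probes and 1 miR167 probe. Other microRNA precursors separated in this way too: 23 miR395 probes (56.1%) and 8 in the range miR413 to miR446 (24.2%), with 0 the reverse. In miR171 2 probes had cadmium above and 4 below. The miR169 counts depend in part on the filter. Among its cadmium rises, the osa-miR169d, osa-miR169g and osa-miR169l 3'seq and osa-miR169j 5'seq probes were kept only through the metal channel. The cadmium rises of miR169 numbered 3 without cadmium replicate 1 or replicate 2, 5 without cadmium replicate 3 and 4 without copper replicate 2 or replicate 3. The copper rises numbered 0 without any 1 copper array or cadmium replicate 2, and 1 without cadmium replicate 3.

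The one member called between the metals was the osa-miR169i 3'seq probe, chromosome 8. It read 1.38, 0.71 and 0.78 on the cadmium arrays and -0.13, -0.32 and 0.12 on the copper arrays, with no overlap. The change was 0.96 ± 0.37 (SD, n = 3) with cadmium, 1.94-fold (limma, adjusted p = 0.00199), and -0.11 ± 0.22 with copper (adjusted p = 0.549). Cadmium exceeded copper by 1.07 ± 0.20 (SE) on the log2 scale (adjusted p = 0.0150). Such a call was made for 0.917% of members, against 10.9% of all probes, 4.09% higher with cadmium and 6.84% lower. It held in 14 of 15 alternatives, with values from 0.85 to 2.33, and was lost without copper replicate 2 (0.96, adjusted p = 0.0637). Without cadmium replicate 1, which held the highest ratio, the difference was 0.86 (adjusted p = 0.0134), and on the slide that holds replicates 2 and 3 of both metals it was 0.85 (adjusted p = 0.00348). The largest value, 2.33, came from the processed signals, in which no offset is added to dim spots.

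The 5'seq probe of osa-miR169i read 1.4, 0.56 and 0.42 with cadmium and -0.02, -0.20 and 0.35 with copper. Again the groups did not overlap, and replicate 1 was the highest with cadmium. Its cadmium change was 0.80 ± 0.53 (limma, adjusted p = 0.0147, n = 3), called under all 16 alternatives and 1.22 by the centred processed signals, while the difference of 0.76 ± 0.27 (SE) between the metals did not pass (adjusted p = 0.118). The osa-miR169j 5'seq probe, chromosome 9, read 0.70, 0.47 and 0.66 with cadmium and 0.05, 0.20 and 0.30 with copper. It rose by 0.61 ± 0.12 with cadmium, 1.52-fold (limma, adjusted p = 0.00125, n = 3), and processed signals gave 1.57. This probe was kept only through the metal channel, its water channel being bright on 1 of 3 cadmium arrays, so its call is a description and not support for a rise. Its difference between the metals was 0.43 ± 0.11 (SE) with an adjusted p of 0.0548, and 0.0485 with the replicate number as a block, which brought the members called between the metals from 1 to 2. The osa-miR169h 5'seq probe, chromosome 8, read 1.27, 0.23 and 0.27 with cadmium and -0.13, -0.17 and 0.19 with copper. Its cadmium mean of 0.59 ± 0.59 passed narrowly (limma, adjusted p = 0.0487, n = 3), was lost in every fit that left out 1 array and was 0.25 without cadmium replicate 1 and 0.93 by the processed signals. The osa-miR169i 5'seq and osa-miR169j and osa-miR169h probes were chosen after their values were seen, for their larger differences among probes whose metals did not overlap. The metals did not overlap either in the osa-miR169e 5'seq and osa-miR169l 3'seq probes. Their differences were only 0.1 and 0.22 (limma, adjusted p = 0.562 and 0.332).

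The largest copper rise in miR169 was that of the osa-miR169g 3'seq probe, chromosome 4, which read 0.20, 0.42 and 0.19 with copper and 0.47, 0.31 and 0.10 with cadmium. The mean was 0.27 ± 0.13 with copper (limma, adjusted p = 0.0459, n = 3) and 0.29 ± 0.18 with cadmium (adjusted p = 0.0416). The probe was kept only through the metal channel. On the cadmium arrays its water channel was never well above background. The cadmium change of 1.23-fold rests on that dim signal and is not a lower limit. The cadmium call held in 7 of 15 alternatives, with values from 0.21 to 2.09 (limma, adjusted p up to 0.154). The copper call was lost without copper replicate 1, 2 or 3 (adjusted p = 0.0701, 0.240 and 0.113) and without cadmium replicate 2 (adjusted p = 0.0757), and processed signals gave up to 1.34 with copper.

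**Figure D4:**
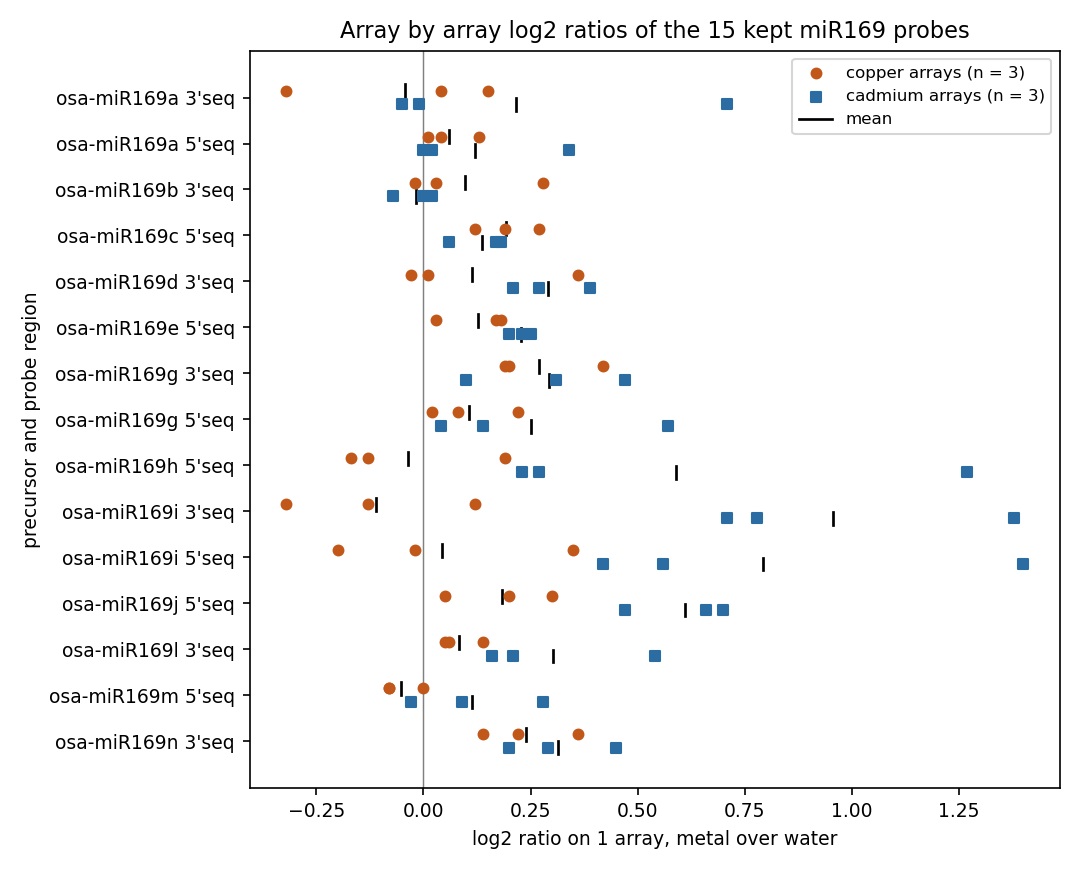
Log2 ratio of metal over water on each array (x axis) for the 15 kept miR169 probes (y axis), with copper as orange circles, cadmium as blue squares and means as black bars. The cadmium squares lie right of all copper circles for both osa-miR169i probes and the osa-miR169h, osa-miR169j, osa-miR169e and osa-miR169l probes, and cadmium replicate 1 gives the far right points of osa-miR169h and osa-miR169i.

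Of the families that act on auxin signalling, miR160 had called probes and miR167 and miR393 had none, with differences between families not tested. The miR160 family cuts messengers of repressive ARF auxin response factors and shapes the root cap in Arabidopsis. Of its 10 kept probes, 1 rose with copper and 4 with cadmium. Its 5 kept 5'seq probes had a copper median of -0.12, with 2 above 0 and none called. The lowest, osa-miR160e 5'seq on chromosome 7, read -0.74, -0.09 and -0.24 with copper. Its mean of -0.36 did not pass (limma, adjusted p = 0.0502) but was called lower in 6 of 16 alternatives. Processed signals called osa-miR160a 5'seq and osa-miR160e 3'seq higher with cadmium than copper, by 0.88 and 0.55. The osa-miR160b 3'seq probe, chromosome 6, read 0.26, 0.46 and 0.29 with copper and 0.33, 0.48 and 0.23 with cadmium. All 6 ratios were above 0.2 and the metals overlapped. Its change was 0.34 ± 0.11 with copper, 1.26-fold (limma, adjusted p = 0.0119, n = 3), and 0.35 ± 0.12 with cadmium, 1.27-fold (adjusted p = 0.0132). The copper call was lost without copper replicate 2 (adjusted p = 0.0878) or replicate 3 (adjusted p = 0.0554), and the cadmium call without cadmium replicate 2 (adjusted p = 0.0895). The cadmium count of the family was 1 without any 1 cadmium array and without copper replicate 2 or replicate 3, and the copper count was 0 without copper replicate 2 or 3, 2 without cadmium replicate 3 and 3 without cadmium replicate 1.

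In miR167, which acts on activating ARF factors, 5 of 30 probes were kept and none was called. The osa-miR167e 3'seq probe, chromosome 2, read 0.17, 0.19 and 0.14 with copper and 0.39, 0.19 and -0.03 with cadmium, and did not pass (limma, adjusted p = 0.175 and 0.153). By the processed signals its copper value was 0.51 (adjusted p = 0.0339). The osa-miR167d 3'seq probe, chromosome 7, read -0.41, -0.16 and -0.13 with cadmium and 0.20, -0.19 and -0.24 with copper (limma, adjusted p = 0.127 and 0.587). Its metal channel was not well above background on any copper array. In miR393, which acts on the TIR1/AFB auxin receptors, none of 3 kept probes was called.

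The osa-miR393 3'seq probe, chromosome 1, read 0.05, 0.32 and 0.28 with cadmium and 0.02, 0.28 and 0.19 with copper. Its cadmium mean of 0.22 ± 0.15 (limma, adjusted p = 0.0867, n = 3) passed with the replicate number as a block (adjusted p = 0.0301) and without cadmium replicate 1 (0.30, adjusted p = 0.0445). The osa-miR393b 3'seq probe, chromosome 4, read 0.30, 0.08 and 0.21 with copper and 0.38, -0.07 and -0.05 with cadmium. Its copper mean of 0.20 ± 0.11 (limma, adjusted p = 0.161, n = 3) passed without cadmium replicate 1 (adjusted p = 0.0493) and was 1.07 by the processed signals (adjusted p = 0.00758).

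Falls were found in the miR396 family, which restrains growth-regulating factors that promote cell division. Both kept probes of osa-miR396b, chromosome 6, fell with copper. The 5'seq probe read -0.23, -0.33 and -0.28 on the copper arrays and -0.43, -0.17 and -0.15 on the cadmium arrays. The 3'seq probe read -0.37, -0.21 and -0.18 with copper and -0.18, -0.26 and -0.13 with cadmium. All 12 ratios were below 0 and the metals overlapped. With copper the 5'seq probe fell by 0.28 ± 0.05 (limma, adjusted p = 0.0253, n = 3) and the 3'seq probe fell by 0.26 ± 0.10 (adjusted p = 0.0252). With cadmium the 5'seq probe fell by 0.25 ± 0.16 (adjusted p = 0.0464), and the 3'seq probe read -0.19 ± 0.07 (adjusted p = 0.0813).

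These falls were near the threshold. The 5'seq copper call was lost without copper replicate 2 (adjusted p = 0.128) or replicate 3 (adjusted p = 0.114), the 3'seq call of osa-miR396b without any 1 copper array (adjusted p of 0.0985, 0.0827 and 0.0783 without replicates 1, 2 and 3), and the cadmium call without any 1 array other than copper replicate 1 (adjusted p from 0.0778 to 0.161). By the processed signals the osa-miR396b 5'seq probe read -1.02 with copper and -1.28 with cadmium. The other kept precursors of the family went the other way or did not pass with copper: the osa-miR396d 3'seq probe, chromosome 4, read 0.24, 0.30 and 0.18 (mean 0.24, limma, adjusted p = 0.0472) and was called in 5 of its 16 alternatives. It read 0.11, 0.05 and -0.19 with cadmium, below the copper arrays without overlap, and the difference of -0.25 did not pass (adjusted p = 0.227).

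In the remaining families few probes could be read. The miR172 family acts on AP2-type factors and in many plants rises with age as miR156 declines. Its 1 kept probe, osa-miR172a 5'seq on chromosome 9, read 0.32, 0.53 and 0.29 with copper and 0.21, 0.10 and 0.33 with cadmium. It rose by 0.38 ± 0.13 with copper, 1.3-fold (limma, adjusted p = 0.00803, n = 3), lost without copper replicate 2 (0.30, adjusted p = 0.0647), and 0.21 ± 0.11 with cadmium did not pass (adjusted p = 0.0824). The miR159 family, which acts on GAMYB factors of gibberellin signalling, had 5 kept probes and none was called. Its osa-miR159a 3'seq probe, chromosome 1, read 0.59, 0.05 and -0.03 with copper and -0.42, 0.08 and -0.24 with cadmium. Replicate 1 was the extreme array of both metals, and neither mean passed (limma, adjusted p = 0.272 and 0.318).

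The miR319 family, which acts on TCP factors of leaf growth, kept 1 probe. That osa-miR319a 3'seq probe, chromosome 1, read -0.17, -0.03 and 0.09 with copper and -0.18, 0.01 and 0.06 with cadmium. The arrays lay on both sides of 0 and the mean was -0.04 with each metal (limma, adjusted p = 0.753 and 0.760). The miR394 family, which acts in Arabidopsis on the F-box protein LCR, also kept 1 probe, osa-miR394 3'seq on chromosome 2, at 0.02, 0.05 and 0.20 with copper and -0.04, 0.17 and 0.16 with cadmium. Its mean was 0.09 with each metal (limma, adjusted p = 0.363 and 0.377), and by the processed signals it was 0.99 with copper (adjusted p = 0.0168). In both of these probes the water channel was not well above background on any copper array.

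Probe regions of one precursor were compared on the same array, as the difference of their log2 ratios. Over the regions, 17 of 50 kept 5'seq probes rose with copper and 18 with cadmium, 6 and 13 of 46 3'seq probes, and 4 and 3 of 13 Mature probes. The 5'seq count was 5 with copper without copper replicate 2 and 7 without copper replicate 3, and 9 with cadmium without cadmium replicate 2. The 3'seq count with copper was 2 without copper replicate 2 or 3, 3 without cadmium replicate 2 and 11 without cadmium replicate 1, and the Mature count with copper was 2 without copper replicate 2 or 3. The 3'seq count with cadmium was 3 without cadmium replicate 2, 5 without cadmium replicate 1 or copper replicate 3 and 6 without copper replicate 2. Of 50 pairs within precursors, none differed with copper and 1 differed with cadmium (limma over 17552 pairs of the array, of which 2.18% were called with copper and 6.02% with cadmium). At an unadjusted p under 0.05 there were 16 pairs with copper and 11 with cadmium. With the replicate number as a block 4 pairs differed with copper and 6 with cadmium. The pair called was osa-miR168a Mature against 5'seq, whose difference was 0.67, 0.36 and 0.37 on the cadmium arrays and 0.38, 0.26 and 0.19 on the copper arrays. The Mature probe was the higher on all 6 arrays, by 0.47 ± 0.08 (SE) with cadmium (adjusted p = 0.0201) and by 0.27 ± 0.08 (SE) with copper (adjusted p = 0.16). That call was lost when copper replicate 2 or cadmium replicate 2 or 3 was left out, and also with median centring, the scanner's processed signals and the series table. The mean log2 intensity was 7.06 for this Mature probe and 15.1 for the 5'seq probe. Whether this gap in brightness affected the difference was not tested.

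In osa-miR166c the Mature probe was the lower of the pair, without a call. The osa-miR166c Mature probe, chromosome 3, read -0.03, 0.05 and 0.07 with copper, while its 5'seq probe read 0.18, 0.60 and 0.63. With cadmium the Mature probe read 0.21, 0.03 and 0.12 and the 5'seq probe 0.64, 0.42 and 0.37. The Mature probe was the lower on all 6 arrays, by differences of -0.44 ± 0.08 (SE) with copper (limma, adjusted p = 0.0549) and -0.36 ± 0.08 (SE) with cadmium (adjusted p = 0.0561), neither past the threshold, and osa-miR166c was chosen here after its values were seen. Without copper replicate 1 both differences passed, at -0.55 for copper (adjusted p = 0.0277) and -0.36 for cadmium (adjusted p = 0.025). The other miR166 precursors with both probes kept were mixed with copper. Mature minus 5'seq was 0.22 for osa-miR166a, -0.06 for osa-miR166b, 0.04 for osa-miR166d and 0.01 for osa-miR166g. With cadmium it was 0.06 for osa-miR166a, and below 0 for osa-miR166b (-0.1), osa-miR166d (-0.18) and osa-miR166g (-0.04). None of these differences passed. Both probes of a pair had the same sign of mean change in 32 of 50 pairs with copper and 40 of 50 with cadmium. The median size of the within-precursor difference was 0.16 with copper and 0.11 with cadmium, against 0.08 and 0.09 for all pairs of the array, where most pairs are probes of one protein-coding locus. For scale, the 2 spots of a kept member probe differed by a median of 0.127 on 1 array.

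**Figure D5:**
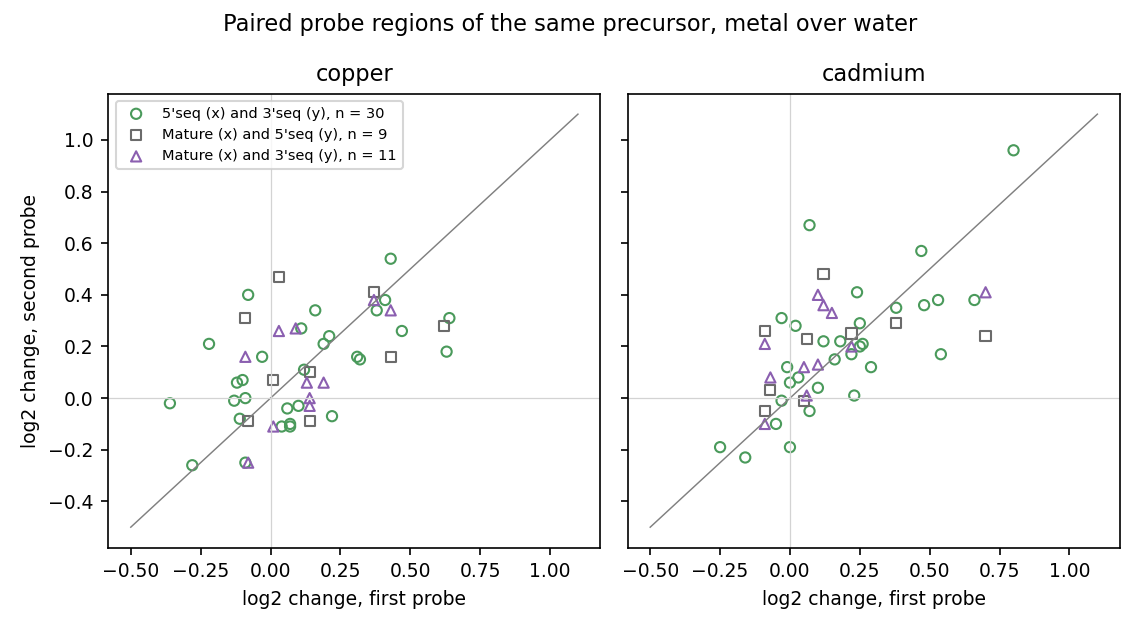
Mean log2 change with copper (left) and cadmium (right) of the 50 pairs of probes within a precursor, the first probe on the x axis and the second on the y axis, with the line of equality in grey. Circles are 5'seq against 3'seq, squares Mature against 5'seq and triangles Mature against 3'seq. Points scatter on both sides of the line, and the osa-miR169i pair is at the upper right with cadmium.

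Set beside other microRNA precursors of the same array, the developmental families had medians between those of miR171 and miR395 with both metals. The 41 kept probes of miR395, a family induced by sulfate shortage that acts on sulfate assimilation, had medians of 0.209 with copper and 0.481 with cadmium. Of these 16 rose with copper (39%) and 36 with cadmium (87.8%), and 0 fell. The 33 kept probes of precursors in the range miR413 to miR446 had medians of 0.136 and 0.253. They had 5 rises (15.2%) and 2 falls with copper, and 9 rises (27.3%) and 1 fall with cadmium. The 9 kept probes of miR171, which acts on GRAS factors, had medians of 0.103 and 0.067. As many fell as rose, 2 with copper (22.2%) and 4 with cadmium (44.4%). Of all 214 kept microRNA probes, members included, 27.1% rose and 3.27% fell with copper, against 25.1% and 17.5% over the array. With cadmium 43.9% rose and 2.8% fell, against 20.4% and 13.7%. Few falls were thus not particular to the developmental families. Differences between these sets were not tested. Target genes of the 14 families were not analysed here, since none of the 29695 loci on the array could be paired with a gene name in the annotation used here.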

How the data were processed

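Arrays were read with Feature Extraction 10.7.1.1, per the file headers, and the deposited intensity is a median over the pixels of a spot, or of its surroundings, in each channel, before any normalization. The deposited log10 ratio (Cy5 over Cy3) and the processed intensity behind it had been corrected for background and dye by the scanner software, per the file headers. The authors' series table holds log2 ratios: its columns had slopes of 1 to 1.001 and correlations of 0.988 to 1 against the scanner's ratios, so scale and direction are known, while their centring is unknown. The medians of its copper columns were -0.067, -0.161 and -0.191, and those of its cadmium columns -0.05, -0.145 and -0.08.

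Background was corrected with normexp (offset 50), which shrinks the ratios of dim probes, and each array was normalized by loess in limma 3.58.1 (R 4.3.3). Spots marked as outliers were left out, and spots of a probe were averaged. A probe counted as well above background on an array if at least a share of 0.5 of its spots did, and needed at least 2 values per metal. A model with a coefficient per metal was fitted over 33701 probes, and over 17552 pairs of probes for the regions, with empirical Bayes moderation and two-sided Benjamini-Hochberg adjusted p-values (threshold 0.05). Scripts were tested on simulated data.

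Members were picked by name alone, but the name rule, the lists and the tests were chosen with earlier results of these data known. Named for each metal were the largest called probe of a family with 1 sign on all 3 arrays (otherwise the largest uncalled one), every probe called lower, every probe called between the metals and every called pair, each given for both metals. Of 11 lists of pathway genes, 0 could be matched to the array's loci. Deviations from the metal means correlated at 0.35, 0.24 and 0.27 between same-numbered copper and cadmium arrays. Of other-numbered arrays that share a slide, copper 2 with cadmium 3 gave 0.21 and copper 3 with cadmium 2 gave 0.17. These are close to the values of replicates 2 and 3, so the correlations do not settle whether replicate numbers pair the arrays. The main model held no pairing, and the replicate block was an alternative. Alternatives covered background, normalization, filter, slide, replicate block, the authors' table and each array left out. The number of arrays limits the precision.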

Additional observations from a re-analysis of the deposited data

Results flagged for a closer look

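The osa-miR169i 3'seq probe differed between the metals by a test of the difference itself: its cadmium minus copper log2 change was 1.07 (limma, adjusted p = 0.0150). All 3 cadmium ratios lay above all 3 copper ratios, which describes the same values as the test. Over its 15 alternatives the adjusted p ran up to 0.0637 and the value from 0.85 to 2.33.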

How the results depend on the processing

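Of the calls given above, 8 of 27 rises with copper and 12 of 34 with cadmium held under all alternatives, and none of the falls did. Member medians stayed above 0 in every alternative, from 0.07 to 0.39 with copper and from 0.07 to 0.47 with cadmium. Processed signals put the median of all probes at -0.14 with copper and -0.12 with cadmium. The version of them centred on the median was added after seeing the data.

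Rises with copper numbered 45 with centred processed signals. Rises with cadmium numbered 18 with median centring in place of loess. Falls with copper numbered 7 with processed signals and with the series table, 5 with centred processed signals, and 1 with median centring and with slide as a random block. Falls with cadmium numbered 4 with processed signals and with the series table, 2 with centred processed signals, and 0 with median centring, the strict filter (both channels bright on all 6 arrays) and the slide block. Members that differed between the metals numbered 4 with processed signals and the series table, 3 with centred processed signals and on the one slide that holds both metals, 2 with the slide block, 2 with the replicate block, and 0 with the strict filter, which leaves out osa-miR169i 3'seq. Region pairs that differed with copper numbered 2 with no background subtraction, 6 with no filter, 5 on the one slide and 4 with the replicate block. Region pairs that differed with cadmium numbered 2 with median centring, processed signals, centred processed signals and the series table, 4 with no background subtraction, 14 with no filter, and 6 on the one slide and with the replicate block. The one region pair called here, osa-miR168a Mature against 5'seq with cadmium, was not among those called with median centring, either version of the processed signals or the series table. More pairs were tested when no filter was used, and the cause of the differences between settings was not tested.

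Leaving out 1 array gave 9 to 34 rises and 0 to 4 falls with copper, 14 to 37 rises and 0 to 1 falls with cadmium, 0 to 1 members that differed between the metals, and 0 to 1 region pairs with copper and 0 to 3 with cadmium. No called member change turned sign, while several uncalled ones did. With copper, the slide block gave 0.03 for osa-miR169i 3'seq and 0.19 for osa-miR169h 5'seq, and processed signals gave -0.17 for osa-miR169i 5'seq. For osa-miR319a 3'seq the copper value was 0.31 with processed signals and the series table, 0.44 centred, and 0.03 on the one slide and without copper replicate 1; with cadmium it was 0.04 with median centring, on the one slide and without cadmium replicate 1, and 0.03 with centred processed signals. With 1 array left out it ran from -0.1 to 0.03 with copper and from -0.09 to 0.04 with cadmium. The replicate block gained 9 member calls with copper, 10 with cadmium and 1 between the metals and lost 0. Low signal limits what can be read: 146 of 255 member probes were too dim to keep.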
